A study of Mus musculus with 4 samples.

Results

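Glycogen, the branched glucose polymer that animal cells keep as a store, is made and broken down by a small set of enzymes, and 9 genes of this set were followed here: Gys1, Gbe1, Gyg, Ugp2, Pygl, Pygb, Phka2, Phkb and Ppp1r3b. They were taken by symbol from a table of 25630 rows, and all 9 symbols were found. The set was put together with the densities' values already known, so the differences between densities given for these 9 genes are a description. Counts of calls among them are given only beside those of all rows, and nothing is read from these counts. RNA came from 4 libraries of BEKO, a mouse cell line described as thymic lymphoma cells with the genotype WT, with 2 libraries for low and 2 for high cell density. Cell line, cell type and genotype are shared by both groups. No agent, cell number, medium or culture time is named for either, and whether libraries of a group were separate cultures is not said, so the spread between them may be technical. Values are TPM, a transcript abundance scaled to the same total in each library, which correct for gene length and can therefore be set side by side between genes. The number of reads behind them is unknown.

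Glycogen synthesis starts from glucose-1-phosphate, which is activated to UDP-glucose. Glycogenin primes a chain, glycogen synthase lengthens it, and the branching enzyme adds side chains. Breakdown is by glycogen phosphorylase, which phosphorylase kinase switches on. Protein phosphatase 1, held on the glycogen particle by targeting subunits, acts the other way on both synthase and phosphorylase. Lymphocytes are not known as major glycogen stores, in contrast to liver and muscle, where tissue-specific forms of several of these enzymes are found.

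The T lineage of the line was visible in its markers: 7 of 7, among them Cd3e, Lck and Ptcra, were above 0 in each library, with summed levels of 6552 to 6968 TPM at low and 5977 to 6539 TPM at high density. Of 35 markers of liver, muscle, brain, B cells, macrophages, fibroblasts and epithelium, 8 were at 0 in low density library 1, against 24 to 25 in the other libraries. Their summed level was 102 TPM in that library, 20.0 TPM in low density library 2 and 10.5 to 11.0 TPM at high density. Outside low density library 1 this sum was mostly Cd68: 17.7 TPM in low density library 2, 9.36 and 8.46 TPM at high density. Lyz2 and C1qa, also macrophage markers, were at 0 in every library. Of the 35 markers, the fibroblast collagen Col1a1 (30.3 TPM) and the neuronal Snap25 (20.7 TPM) were the highest in low density library 1. Both were under 0.5 TPM in the other 3 libraries. The hepatocyte marker Alb was at 0 in those 3 libraries. In bulk RNA, fewer cells of a type and less RNA per cell cannot be told apart.

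Gys1, Gbe1 and Ppp1r3b stood apart from the other 6 genes, with levels at high density between 3.62-fold and 4.40-fold those at low density. Gyg, Ugp2, Phka2 and Phkb were 1.26-fold to 1.53-fold as high, the phosphorylase gene Pygb overlapped between densities, and Pygl was at or near 0 throughout. In 7 of the 9 genes both high density libraries lay above both low density libraries. Tests ran on the 10936 rows that averaged 1 TPM or more, and 34.7% of these did so. Pygl fell below that filter and 8 genes passed it. None of the 8 needed the high density libraries to pass, since each was above 7 TPM in every library. The median difference of the 8 on the log2(TPM + 1) scale was 0.55, beside 0.12 over all tested rows.

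**Figure D1:**
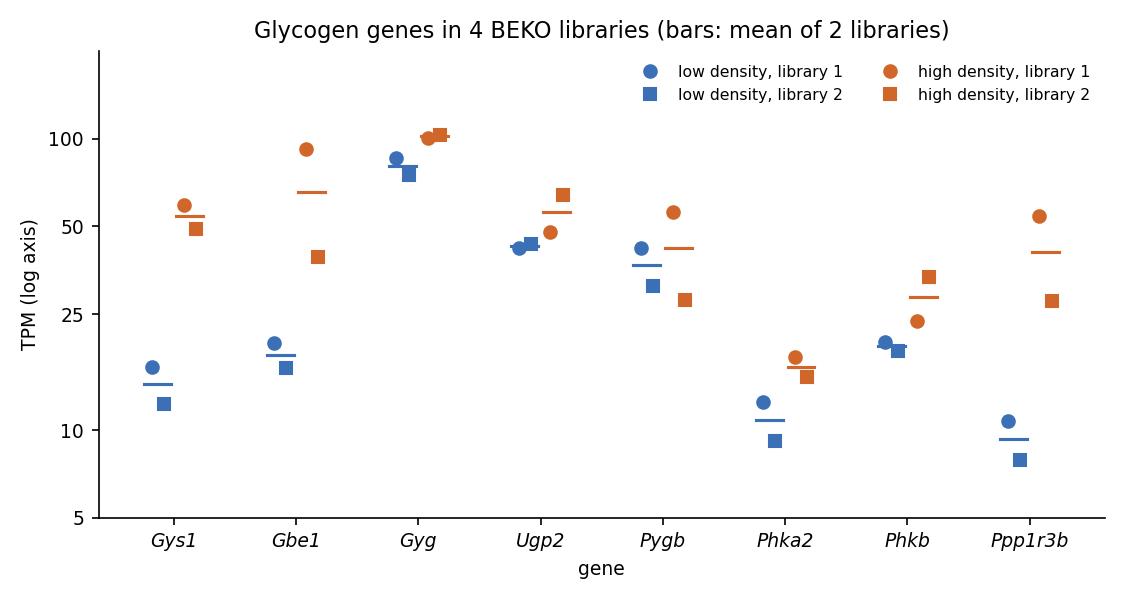
TPM on a log axis for the 8 genes with a mean of at least 1 TPM, with circles for library 1, squares for library 2 and bars for the mean of the 2 libraries of a density. Gys1, Gbe1 and Ppp1r3b show the widest gaps between densities, and Pygb the only overlap.

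Ugp2 encodes UDP-glucose pyrophosphorylase, the enzyme that makes UDP-glucose. It was at 42.1 and 43.5 TPM in low density libraries 1 and 2, and at 47.8 and 64.0 TPM in high density libraries 1 and 2. The low density libraries were close to each other, and high density library 2 was the highest of the 4. The log2 difference was 0.36 ± 0.26 (SE, n = 2 per density), 0.16 when high density library 2 was left out and 0.57 when high density library 1 was. Gyg encodes glycogenin, the self-glucosylating primer, and was the most abundant of the 9 genes at both densities. Its levels were 85.7 and 75.1 TPM at low and 100.5 and 103 TPM at high density. The groups did not overlap, but the gap between them was small, with a log2 difference of 0.34 ± 0.24 (SE, n = 2 per density). The log2 difference of Gyg was 0.15 after median centring, in which each library is shifted to the same median.

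Gys1 encodes the glycogen synthase that is found in muscle and most other tissues. It was at 16.4 and 12.3 TPM at low density and at 59.0 and 49.0 TPM at high density. Both high density libraries were well above both low density libraries, and their mean was 3.77-fold higher. The log2 difference was 1.85 ± 0.28 (SE, n = 2 per density), larger than that of 98.6% of tested rows. It lay between 1.61 and 2.05 over 14 other settings of the processing or with a library left out. Settings that changed only the filter, the moderation or the replicate block left it at 1.85, as they cannot move it. Its liver paralog Gys2 was at 0.682 and 1.33 TPM at low and at 0.118 and 0.527 TPM at high density, and did not pass the filter. Gys1 was thus the main synthase transcript in each library.

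Gbe1 encodes the branching enzyme. It was at 19.9 and 16.3 TPM at low density, at 91.7 TPM in high density library 1 and at 39.2 TPM in high density library 2. The groups did not overlap, but the high density libraries were 2.34-fold apart, the widest gap of the 8 genes. The mean was 3.62-fold higher at high density, 2.16-fold if only library 2 stood for that density and 5.07-fold if only library 1 did. On the log2 scale the difference was 1.68 ± 0.36 (SE, n = 2 per density).

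Ppp1r3b encodes the glycogen-targeting subunit of protein phosphatase 1 best known from liver, which brings the phosphatase to glycogen synthase and phosphorylase. It was the least abundant of the 8 genes at low density, at 10.7 and 7.88 TPM. At high density it was at 54.2 TPM in library 1 and 27.7 TPM in library 2. All high density values exceeded all low density values, and the mean was 4.40-fold higher (2.98-fold by library 2 alone and 5.83-fold by library 1 alone). The log2 difference was 1.96 ± 0.35 (SE, n = 2 per density), larger than that of 98.9% of tested rows.

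For Gys1, Gbe1 and Ugp2 the promoter sequence is shown because these genes are next to each other in the synthesis route, with a large difference for the first pair and a small one for Ugp2. The sequences are RefSeq's for build GRCm38.p6, from the bases just before the annotated gene start, and leave out stretches that hold an annotated exon. The build named in the submitters' processing notes is mm9, and no position is carried over between the builds. Capitals mark ACGTG and GCGTG, the core letters of the hypoxia response element, and CCAAT, the letters of the CCAAT box, on either strand. Read in the gene's direction, the stretches are chr7:45434710-45434838 on the plus strand for Gys1, chr16:70313699-70313948 on the plus strand for Gbe1 and chr11:21371268-21371459 on the minus strand for Ugp2.
Gys1: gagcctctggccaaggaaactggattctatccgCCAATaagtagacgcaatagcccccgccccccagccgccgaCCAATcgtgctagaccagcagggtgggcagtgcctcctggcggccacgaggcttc
Gbe1: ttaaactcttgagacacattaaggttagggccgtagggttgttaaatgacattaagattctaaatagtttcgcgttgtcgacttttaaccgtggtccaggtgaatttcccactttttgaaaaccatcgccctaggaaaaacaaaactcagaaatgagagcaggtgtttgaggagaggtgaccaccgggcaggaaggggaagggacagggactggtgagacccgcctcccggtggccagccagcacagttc
Ugp2: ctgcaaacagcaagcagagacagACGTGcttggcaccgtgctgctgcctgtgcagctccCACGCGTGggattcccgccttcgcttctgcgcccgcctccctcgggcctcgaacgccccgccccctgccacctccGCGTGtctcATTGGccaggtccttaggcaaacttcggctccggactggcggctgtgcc

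In these letters Gys1 held CCAAT 2 times and neither ACGTG nor GCGTG. Gbe1 held none of the 3. Ugp2 held ACGTG 1 time, GCGTG 3 times and CCAAT 1 time, and 2 of its GCGTG matches overlap each other on opposite strands. The stretch shown is from the 1 of 2 annotated Ugp2 starts whose window held GCGTG, and was chosen for that. The window of the other start held none of the 3. Over the full 250 bases before the start, 8 of the 9 genes had 9 windows in the reference (Ugp2 has 2), and 5 of the 9 windows held ACGTG or GCGTG, against 38.6% of 32851 windows of all genes. Those 5 belonged to Gyg, Ugp2, Pygl, Pygb and Phkb, and Gys1, Gbe1 and Phka2 had no match. The full windows were not cleared of annotated exons, and those of Gyg, Pygb and Phkb overlap exons of the gene itself. CCAAT was in 2 of the 9 windows, of Gys1 and Ugp2, against 33.8% of all windows. The Gbe1 window was also the poorest in G and C, at 48.8%, where the other windows of these genes had 59.6% to 73.6% and the median of all windows was 52.4%. A match or its absence in this window describes letters and no binding.

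On the breakdown side, Pygb, the phosphorylase form first described from brain, was at 42.2 and 31.2 TPM at low density and at 56.1 and 28.0 TPM at high density. The highest and the lowest value both came from high density libraries, so the groups overlapped. The log2 difference was 0.13 ± 0.33 (SE, n = 2 per density), close to the median of all tested rows, and its sign turned with the libraries and the scaling used: −0.36 if high density library 1 was left out, 0.61 if library 2 was, −0.086 if low density library 2 was, −0.061 after median centring and −0.067 after quantile normalisation. Pygl, the liver form, was listed at 0.195 TPM in low density library 1 and at 0 in the other 3. That library is the one in which the markers of other cell types summed highest, and their part in this value was not tested. The muscle form Pygm was at 3.18 and 2.42 TPM at low and at 1.56 and 2.18 TPM at high density, and was not called (limma adjusted p = 0.561). Pygb was therefore the most abundant phosphorylase transcript in each library.

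Phosphorylase kinase is built from a catalytic gamma subunit, regulatory alpha and beta subunits, and calmodulin. Phka2, the alpha subunit known from liver, was at 12.4 and 9.15 TPM at low and at 17.8 and 15.2 TPM at high density. The groups did not overlap, and the log2 difference was 0.58 ± 0.30 (SE, n = 2 per density). Phkb, the beta subunit, was at 20.1 and 18.7 TPM at low and at 23.6 and 33.4 TPM at high density. The groups did not overlap here either, and high density library 2 was the higher, as for Ugp2. Its log2 difference was 0.51 ± 0.28 (SE, n = 2 per density), 0.27 if high density library 2 was left out and 0.75 if library 1 was. The muscle alpha subunit Phka1 was listed at 0.0257 TPM in low density library 1 and at 0 in the other 3 libraries. Of the catalytic subunits, Phkg1 lay under 0.3 TPM in every library, and Phkg2 was at 34.1 and 24.8 TPM at low and at 43.2 and 54.2 TPM at high density (log2 difference 0.71 ± 0.28 SE, limma adjusted p = 0.144).

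Of the 8 genes, 3 passed the threshold used for the whole table, an adjusted p under 0.05 in limma with Benjamini-Hochberg adjustment, all 3 higher: Gys1, Gbe1 and Ppp1r3b. Of all 10936 rows 4.57% passed as higher and 2.11% as lower, 6.68% in all (500 and 231 rows, against 160 and 154 after median centring). Nothing is read from the count, since the genes were chosen on this contrast. After median centring or quantile normalisation the count was 1, Gys1. With a library left out, the log2 difference of Gys1 lay between 1.65 and 2.05. That of Gbe1 lay between 1.08 and 2.29, and that of Ppp1r3b between 1.49 and 2.44.

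**Figure D2:**
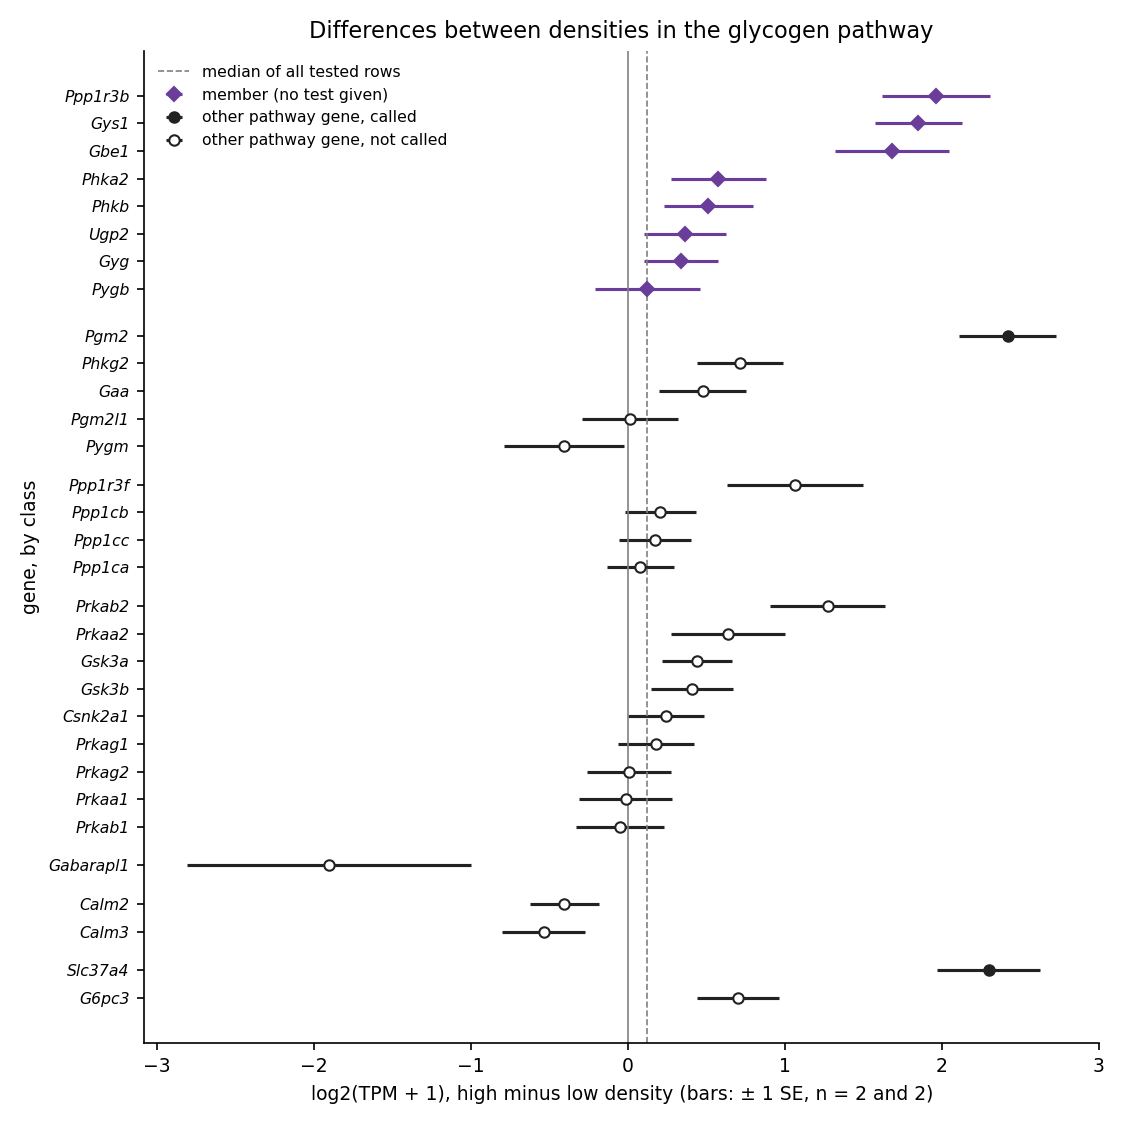
Log2(TPM + 1) at high minus low density, with ± 1 SE from limma, for 8 chosen glycogen genes (diamonds, no test shown) and 23 of 25 other tested genes of the pathway (circles, filled where called). The dashed line is the median of all tested rows, 0.12, and Pgm2 and Slc37a4 are the filled circles.

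The order of levels also differed between the densities. At low density it ran Gyg, Ugp2, Pygb, Phkb, Gbe1, Gys1, Phka2, Ppp1r3b and Pygl by mean TPM. Gyg and Pygl were clear of their neighbours, as was the step from Pygb to Phkb, while the ranges of Ugp2 and Pygb, and of each neighbouring pair from Phkb to Ppp1r3b, overlapped. At high density it ran Gyg, Gbe1, Ugp2, Gys1, Pygb, Ppp1r3b, Phkb, Phka2 and Pygl. Every neighbouring pair from Gbe1 to Phkb overlapped in range, so the order of neighbours among these 6 is not fixed by 2 libraries. The ranges of Gbe1, Ugp2 and Gys1 lay wholly above that of Phkb.

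Ratios of TPM between genes within a library do not depend on how the library was scaled. Gys1 over Pygb, synthase over phosphorylase, was 0.389 and 0.393 in the low density libraries, and 1.05 and 1.75 in the high density libraries. The phosphorylase transcript was the more abundant in both libraries at low density and the synthase transcript in both at high density. Gyg over Gys1, primer over synthase, was 5.21 and 6.12 at low density, against 1.70 and 2.10 at high density. Ugp2 over Gys1 was 2.56 and 3.54 at low density, against 0.810 and 1.30 at high density. These 3 ratios did not overlap between densities. All 3 hold Gys1, which was chosen with its values at both densities known, so they restate its difference and are not 3 separate results. How often ratios of other gene pairs do so was not counted.

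Other ratios overlapped. Gbe1 over Gys1 was 1.21 and 1.33 at low density and 1.55 and 0.798 at high density, so branching enzyme and synthase RNA stood in a like proportion at low density and on either side of it at high density. Ppp1r3b over Gys1 was 0.653 and 0.642 at low density, against 0.918 and 0.564 at high density. Phkb over Phka2, the beta over the alpha subunit, was 1.61 and 2.05 at low density, against 1.33 and 2.20 at high density.

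**Figure D3:**
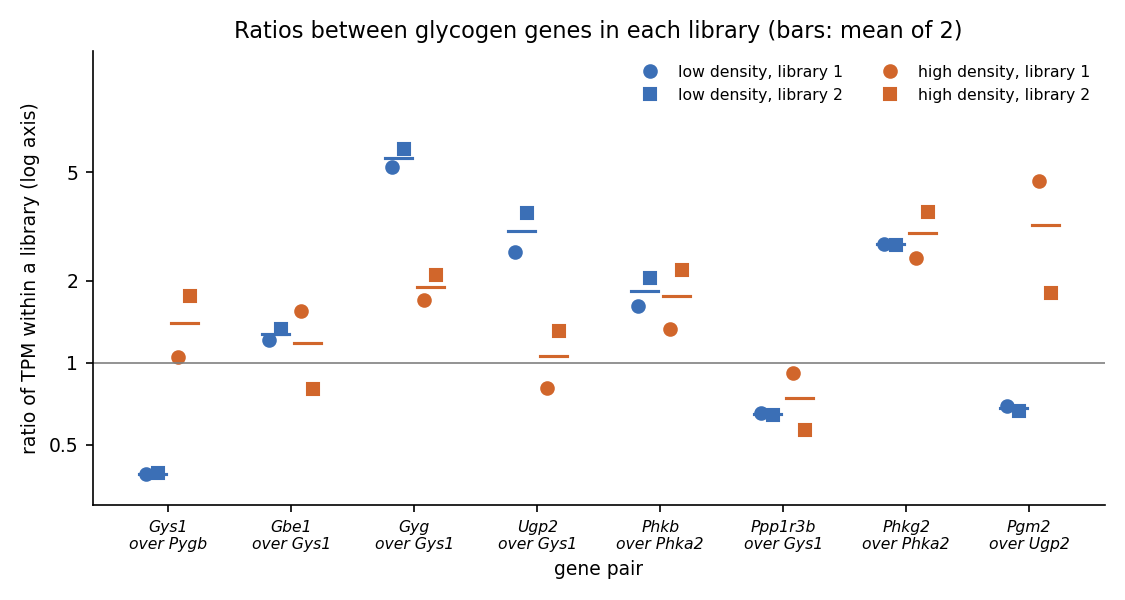
Ratio of TPM of 2 genes within each library, on a log axis, with circles for library 1, squares for library 2 and bars for the mean of 2 libraries. Gys1 over Pygb is under 1 in both low density libraries and over 1 in both high density libraries.

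The spread between the 2 high density libraries was not the same for all of these genes. Gbe1, Pygb and Ppp1r3b were 2.34-fold, 2.00-fold and 1.96-fold higher in library 1 than in library 2, and Gys1 and Phka2 were higher there by 0.26 and 0.21 on the log2 scale. Gyg was level, with a ratio of library 1 to library 2 of 0.977, and Ugp2 and Phkb were lower in library 1, at 0.748 and 0.709. Thus 5 of the 8 were higher in library 1, where 28.8% of all tested rows were. Taken with its sign, library 1 minus library 2, the log2 difference of Gbe1, Pygb and Ppp1r3b exceeded that of 97.0% to 98.3% of tested rows. By size in either direction such gaps were less rare, as 8.93% of tested rows were at least 2-fold apart on the log2(TPM + 1) scale. Between the low density libraries the ratios of library 1 to library 2 ran from 0.967 to 1.36 over the 8 genes.

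**Figure D4:**
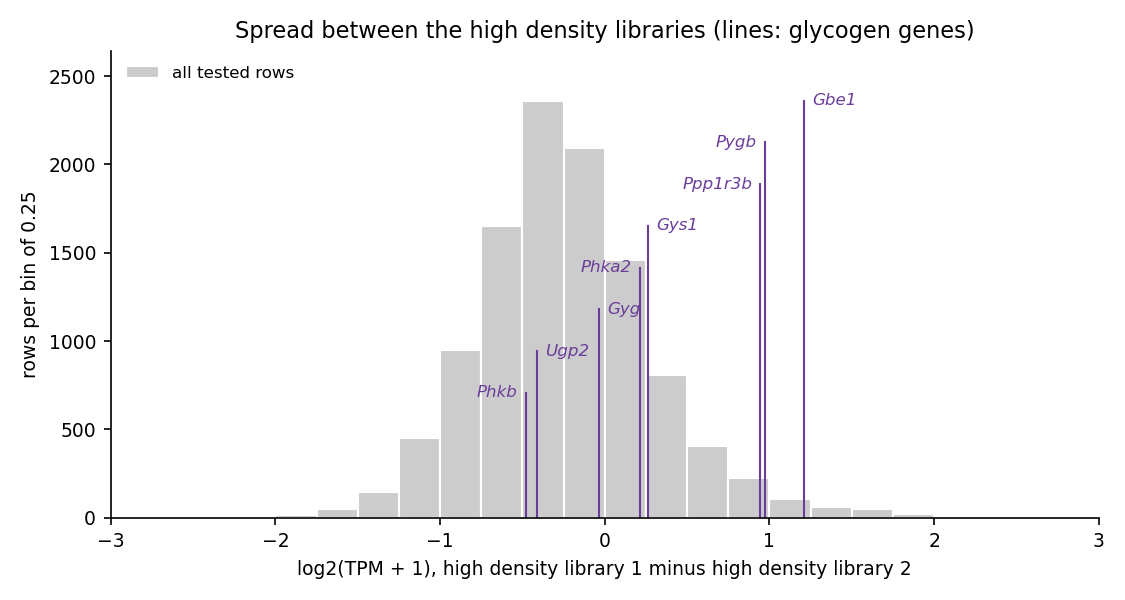
Histogram of log2(TPM + 1) in high density library 1 minus high density library 2 for all 10936 tested rows, in bins of 0.25, with a vertical line for each of 8 glycogen genes (line height carries no value). The median of all rows is −0.27, and Ppp1r3b, Pygb and Gbe1 lie at 0.94, 0.98 and 1.21.

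The rest of the pathway was taken from a list of 39 other genes, chosen by function but with earlier results of these data known. Of these, 25 passed the filter, 3 rose and 0 fell (limma, adjusted p under 0.05, beside 4.57% of all rows higher and 2.11% lower). In either direction, 8 of the 25 passed at an unadjusted p under 0.05, beside 23.5% of all tested rows. The median log2 difference of the 25 was 0.21, beside 0.12 over all tested rows. The count of called genes was 0 after median centring (7 at an unadjusted p under 0.05).

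A row named for a phosphoglucomutase, the type of enzyme for the step between glucose-6-phosphate and glucose-1-phosphate, was among the called genes. The row named Pgm2 was at 29.1 and 28.9 TPM at low density and at 222 and 115 TPM at high density. The low density pair was nearly level, and both high density libraries were far above it. It rose 5.80-fold (log2 difference 2.42 ± 0.31 SE, limma adjusted p = 0.00133; adjusted p = 0.0538 after median centring). Mouse Pgm1 and Pgm2 have each carried the other's name, and the table does not say which enzyme the row stands for. The row named Pgm1 was under 0.1 TPM in all libraries. The ratio of Pgm2 to Ugp2 was 0.693 and 0.664 at low density, against 4.63 and 1.80 at high density. These are the steps before and after glucose-1-phosphate only if the Pgm2 row stands for the enzyme of the former.

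Of 2 tested genes for the release of free glucose from glucose-6-phosphate, 1 rose. Slc37a4, the transporter that carries glucose-6-phosphate into the endoplasmic reticulum, was at 4.55 and 5.40 TPM at low and at 36.3 and 22.1 TPM at high density. It rose 5.86-fold (log2 difference 2.30 ± 0.33 SE, limma adjusted p = 0.00229; adjusted p = 0.0512 after median centring). G6pc3, the widely expressed glucose-6-phosphatase, was at 24.7 and 23.8 TPM at low and at 36.9 and 43.7 TPM at high density, and was not called (limma adjusted p = 0.131). Its log2 difference was 0.70, and lay between 0.58 and 0.82 with a library left out. G6pc and G6pc2, the liver and islet forms, were listed at 0 in all 4 libraries.

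Among the phosphatase and its other glycogen-targeting subunits, 0 of 4 tested genes were called by limma. Ppp1ca, a catalytic subunit of protein phosphatase 1, was at 740.2 and 710.1 TPM at low and at 785 and 749 TPM at high density (adjusted p = 0.857 in limma). Of the 6 other targeting subunits in the list, only Ppp1r3f passed the filter, at 3.20 and 2.05 TPM at low and at 3.90 and 10.4 TPM at high density (adjusted p = 0.167 in limma). Its log2 difference was 1.06, and lay between 0.45 and 1.67 with a library left out. The remaining 5, Ppp1r3a, Ppp1r3c, Ppp1r3d, Ppp1r3e and Ppp1r3g, were at 0 in at least 3 of the 4 libraries. Ppp1r3b was thus the most abundant targeting subunit in each library.

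Of 9 genes for kinases that act on glycogen synthase, or for subunits of such kinases, all 9 were tested and 0 were called by limma. Gsk3a, glycogen synthase kinase 3 alpha, was at 249 and 220.5 TPM at low and at 327 and 311 TPM at high density (log2 difference 0.44 ± 0.22 SE, limma adjusted p = 0.258). Prkab2, a beta subunit of AMP-activated protein kinase with a glycogen-binding domain, was at 2.27 and 1.90 TPM at low and at 8.11 and 5.10 TPM at high density. Its high density values lay above its low density values, as did those of 34.7% of all tested rows. The limma adjusted p of Prkab2 was 0.0600, and it fell to 0.0421 without the trend and to 0.0450 with robust moderation. It stayed over 0.05 with the replicate block (0.0515), a rescaling without ribosomal protein genes (0.0729), quantile normalisation (0.123) and median centring (0.135).

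Calm2 and Calm3, calmodulin genes that supply the delta subunit of phosphorylase kinase among many other roles, both had lower means at high density, and neither was called. Calm2 was at 825 and 695 TPM at low and at 586 and 559 TPM at high density (adjusted p = 0.298 in limma). Calm3 had a log2 difference of −0.54 ± 0.26 (SE, adjusted p = 0.248 in limma), which lay between −0.89 and −0.18 with a library left out. Of 4 genes for glycogen quality and glycogen autophagy, Stbd1, Epm2a and Nhlrc1 were under 0.2 TPM in every library. Gabarapl1, an autophagy adaptor that binds Stbd1, was at 13.6 TPM in low density library 1, at 0 in low density library 2, and at 0.0442 and 0 TPM at high density. Its level thus came from the library in which the markers of other cell types summed highest, and their part in it was not tested. It was not called (limma adjusted p = 0.231), and the log2 difference without that library was 0.031.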

How the data were processed

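The authors deposited gene-level TPM, a length-corrected abundance, with 1 column per library and a total of 1000000 in each. A build, mm9, stands in the submitters' processing notes with no role given. No aligner, counter or annotation is named in the sources used here. Columns were tied to samples by the column name in each description.

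The densities were compared by a two-sided limma fit (version 3.58.1, R 4.3.3) of log2(TPM + 1) with a group term and a mean-variance trend, over the 10936 rows that averaged 1 TPM or more, with Benjamini-Hochberg adjustment over all of them and a threshold of 0.05. The fit has 2 residual degrees of freedom and 9.53 from moderation. It was tested on simulated data. The members and lists were chosen with earlier results of these data known. Named are all 9 members, every called gene of the pathway list and the most abundant tested gene of each class. A few such genes are not reported here but are included in the counts. Paralogs and partner subunits of members, and Prkab2, were added after their values were seen. Promoter sequences are RefSeq's, matched by symbol for 8 of 9 members (none for Ppp1r3b). Their motifs were picked for this description. Alternatives tried were 2 other pseudocounts, 2 other filters, 3 scalings, 2 forms of moderation, a replicate block and leaving out each library.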

Additional observations from a re-analysis of the deposited data

How the results depend on the processing

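Over all tested rows limma called 731, but 0 without the filter on low values (2565 at an unadjusted p under 0.05), 314 with median centring, 360 after quantile normalisation, and between 233 (low density library 2 left out) and 3270 (high density library 1 left out). The share of higher calls went from 68.4% to 51.0% with median centring and 60.0% after quantile normalisation. Of the 9 chosen genes 3 were called, 0 without the filter, 1 with median centring and 1 after quantile normalisation. Of the other pathway genes 3 were called, 0 without the filter (7 at an unadjusted p under 0.05), 0 with median centring, and between 2 and 10 with a library left out. Among the genes named above, signs turned for Pygb with median centring (−0.061), quantile normalisation (−0.067) and a library left out (from −0.36 to 0.61). They also turned for Ppp1ca with median centring (log2 difference −0.11) and for Gabarapl1 with a library left out (from −3.84 to 0.031, the latter without low density library 1). Some pathway genes that are not named turned sign as well, with median centring or a library left out. These causes were not tested. The replicate numbers share only a number (correlation of deviations 0.042 over tested rows): with a replicate block 937 rows, 3 of the chosen genes and 4 other pathway genes were called, Gabarapl1 in addition. The depth is unknown, so no limit can be given for genes listed at 0.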
